A study of Mus musculus with 6 samples.

Results

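A group of 6 receptor and adaptor genes of the interleukin-1 (IL-1) family was examined in precursors of innate lymphoid cells (ILCPs), sorted from bone marrow. They are Il1rl1, Il1rap, Il1r1, Il18r1, Il18rap and Myd88, 6 of the 16383 genes analysed. They were taken by symbol. The set was chosen by gene family with the fold changes between GFP+ and GFP− libraries already known, so the differences given for its members are descriptions. All 6 passed the filter on low counts that left 12199 genes to test.

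The cells came from the bone marrow of C57BL/6 mice that carried both the Rag1-cre and the ET-2 alleles, whose age and sex are not given in the sources used here. The ET-2 protein joins activating parts of the transcription factor E47 to the part of TAL1 that binds DNA. Both groups came from the same marrow and were sorted for IL7Rα, α4β7 and CD90 and against lineage markers, Flt3 and CD25. The GFP+ ILCPs expressed ET-2 and the GFP− ILCPs did not. There were 3 libraries in each group, and libraries with the same number came from one pool of 4 to 5 mice. Cre driven by Rag1 and expression of ET-2 go together in the GFP+ cells, and their parts cannot be told apart.

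IL-1, IL-18 and IL-33 each bind a receptor chain of their own, and the signal starts when a second, accessory chain joins. Il1r1 encodes the chain for IL-1, Il1rl1 (ST2) the chain for IL-33, and both share the accessory chain encoded by Il1rap. Il18r1 and Il18rap encode the binding and accessory chains for IL-18. The intracellular TIR domains of the paired chains recruit MyD88, which passes the signal through IRAK kinases and TRAF6 to NF-κB and MAP kinases. In innate lymphoid cells, the IL-33 receptor is best known from type 2 cells (ILC2) and the IL-18 receptor from type 1 cells, natural killer cells and bone marrow precursors.

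The GFP+ libraries held 10432461 to 15042354 estimated counts and the GFP− libraries 11680512 to 19038554. GFP+ replicate 3 stood apart with the fewest genes above 0, 11240 against 12576 to 15016 in the other libraries. Il2ra, which encodes the CD25 that the sort selected against, stood there at 2032 CPM (counts relative to library depth, after TMM scaling), against 151 to 396 CPM in the other 5 libraries. The gate genes Il7r, Itga4, Itgb7 and Thy1 were found in every library, at no less than 1259, 1795, 89.4 and 184 CPM, and Flt3 did not exceed 2.57 CPM. In edgeR's quasi-likelihood test 0 of 12199 genes (0.0%) passed an adjusted p of 0.05, and 394 (3.23%) had an unadjusted p under 0.05. DESeq2 passed 60 genes (0.411% of those with an adjusted p), none of them among the 6.

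The IL-33 receptor gene Il1rl1 was at about 4 times the level in GFP+ ILCPs that it had in GFP− ILCPs, and the accessory chain gene Il1rap at nearly 5 times. In both genes each GFP+ library lay above each GFP− library. The chain for IL-1, Il1r1, was higher in 2 of 3 pools. The IL-18 receptor genes Il18r1 and Il18rap were each lower in 2 of 3 pools, with the widest gap in pool 3. The gap of Il18rap in pool 2 was slight, at 0.966 times the level of its GFP− partner. Myd88 differed by less than a factor of 2 in pools 1 and 2. None of the 6 passed edgeR's test over all genes. Il1rl1 and Il1rap were the 2 with an unadjusted p under 0.05, where 1.77% of all genes tested were higher in GFP+ cells at that threshold. Groups without overlap were found in 9.18% of the genes tested, and with GFP+ above in 387 genes (3.17%). In bulk RNA, fewer cells of a type and less RNA per cell cannot be told apart.

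**Figure D1:**
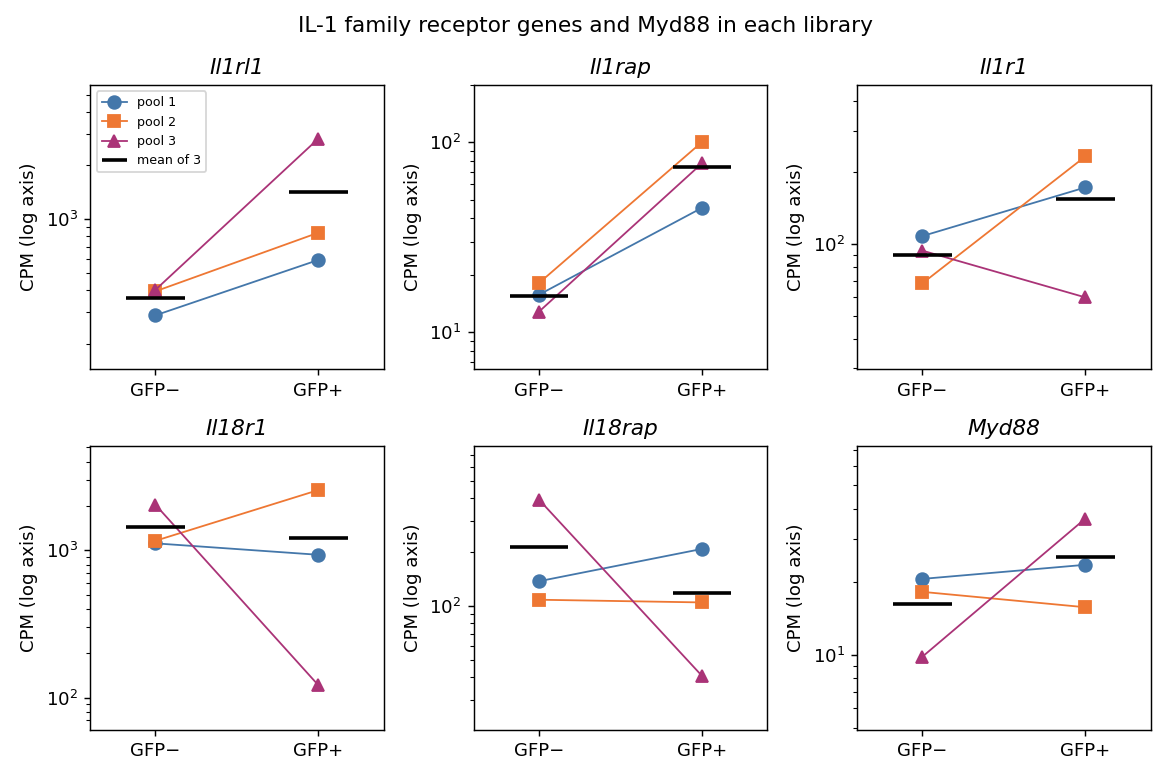
CPM of the 6 genes (vertical log axes) in GFP− and GFP+ ILCPs, with one line for each pool of mice and black bars for the mean of 3 libraries. The lines of Il1rl1 and Il1rap rise in all 3 pools, and those of Il18r1 and Il18rap fall from 2037 to 121 and from 393 to 40.8 CPM in pool 3.

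Il1rl1 lies on chromosome 1 at 40429570 to 40465415, plus strand, in GRCm38 (GENCODE vM21). GFP+ replicates 1, 2 and 3 gave 589.96, 839 and 2833 CPM of Il1rl1. GFP− replicates 1, 2 and 3 gave 288, 393 and 401 CPM. The lowest GFP+ library was above the highest GFP− library, and the GFP+ values were spread far more widely than the GFP− values. The means were 1421 ± 1230 and 361 ± 62.9 CPM (SD, n = 3 each), a ratio of 3.94. Within pools 1, 2 and 3 the GFP+ library held 2.05, 2.13 and 7.07 times the level of its GFP− partner. edgeR gave a log2 fold change of 1.98 ± 0.66 (SE; adjusted p = 0.998), and DESeq2 gave 2.08 ± 0.83 (adjusted p = 0.476). The size of the difference rested on GFP+ replicate 3. Without that library the GFP+ mean was 715 CPM, 1.98 times that of the GFP− libraries, and edgeR's log2 fold change was 0.98 ± 0.46.

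The counts were per gene, so they do not separate the membrane form of ST2, which carries the TIR domain, from the soluble form, a decoy that binds IL-33 without signalling. Il1rl1 has alternative first exons, and RefSeq lists starts at 40429570 and 40439629. The 250 bases before each start (RefSeq, GRCm38.p6, plus strand) are shown because ET-2 carries a DNA-binding region of the type that recognises E-boxes, and E-boxes (CANNTG, searched on both strands) are in capitals.
Il1rl1 first start, chr1:40429320-40429569: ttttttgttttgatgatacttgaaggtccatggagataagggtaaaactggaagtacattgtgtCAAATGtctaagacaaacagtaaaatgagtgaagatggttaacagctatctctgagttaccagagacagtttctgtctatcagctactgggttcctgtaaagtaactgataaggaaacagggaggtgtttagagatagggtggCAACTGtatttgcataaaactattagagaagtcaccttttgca
Il1rl1 second start, chr1:40439379-40439628: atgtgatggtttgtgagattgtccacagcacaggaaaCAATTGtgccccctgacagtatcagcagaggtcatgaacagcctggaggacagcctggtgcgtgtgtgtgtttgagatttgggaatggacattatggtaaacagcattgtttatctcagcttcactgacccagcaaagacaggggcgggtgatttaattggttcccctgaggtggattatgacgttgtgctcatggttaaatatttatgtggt
The first window held 2 E-boxes, CAAATG and CAACTG, at 186 and 43 bases before the start. The second held 1, CAATTG, at 213 bases before the start. Each window also held 1 match to AGATAA, a motif of GATA factors, on either strand. Of 32851 windows of this length before the starts in the RefSeq table, 66.2% held CANNTG and 9.99% held AGATAA. A match is only a run of letters, and binding was not measured.

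Il1rap lies on chromosome 16 at 26581704 to 26730117, plus strand, apart from the other receptor genes. GFP+ replicates 1, 2 and 3 gave 45.2, 100.3 and 77.5 CPM. The GFP− replicates gave 15.8, 18.2 and 12.8 CPM. The GFP− values were close together, and the lowest GFP+ value was well above all of them. The means were 74.3 ± 27.7 and 15.6 ± 2.67 CPM (SD, n = 3 each), a ratio of 4.77, from 2571 counts in the GFP+ and 785 in the GFP− libraries. Within pools 1, 2 and 3 the GFP+ library held 2.87, 5.52 and 6.04 times the level of its partner. The difference did not rest on GFP+ replicate 3, without which the ratio of means was 4.67.

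For Il1rap the adjusted p depended on the fit. The edgeR log2 fold change was 2.25 ± 0.64 (SE; adjusted p = 0.998). DESeq2 gave 2.31 ± 0.65 (adjusted p = 0.0697). The authors' deposited table lists 2.32 ± 0.61 with an adjusted p of 0.0146, and is thus past 0.05 for Il1rap, with 34 other genes higher in GFP+ cells (35 genes, 0.251% of those with an adjusted p, and 0.703% in either direction). That table and the DESeq2 values here gave nearly the same fold change for Il1rap, and the settings and the set of genes behind the authors' adjusted p are not given in the sources used here. The other 5 genes are listed in the authors' deposited table with adjusted p of 0.283 for Il1rl1, 0.875 for Il1r1, 0.991 for Il18r1, 0.930 for Il18rap and 0.913 for Myd88. When single libraries were left out, the DESeq2 adjusted p of Il1rap ranged from 0.00410 to 0.352. It was under 0.05 for Il1rap without GFP+ replicate 1, where DESeq2 called 682 genes (5.12%). The fold change itself moved little, from 1.95 to 2.59 on the log2 scale over 23 alternatives.

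The window before the start of Il1rap is shown for contrast with those of Il1rl1, since both genes were higher in the 3 pools (RefSeq, GRCm38.p6, plus strand).
Il1rap, chr16:26581455-26581704: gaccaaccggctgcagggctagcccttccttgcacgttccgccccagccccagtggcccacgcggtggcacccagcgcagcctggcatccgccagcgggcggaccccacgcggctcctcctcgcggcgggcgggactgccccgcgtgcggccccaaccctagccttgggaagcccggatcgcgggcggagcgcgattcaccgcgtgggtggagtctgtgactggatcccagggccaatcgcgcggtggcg
It held neither CANNTG nor AGATAA on either strand, which says only that these letters are absent from these 250 bases. The windows before the starts of Il1r1, Il18r1, Il18rap and Myd88 each held 1 or 2 matches to CANNTG. An antisense gene overlaps Il1rap in the annotation, and whether the protocol kept strand is not given in the sources used here, so counts from the 2 strands cannot be told apart.

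Il1r1, the signalling receptor for IL-1, lies on chromosome 1 at 40225080 to 40317257, plus strand. Its values were 173, 234 and 59.6 CPM in GFP+ replicates 1, 2 and 3. The GFP− replicates gave 108, 68.3 and 93.8 CPM. GFP+ replicates 1 and 2 were above every GFP− library and GFP+ replicate 3 was below every one. The means were 155 ± 88.3 and 90.04 ± 20.1 CPM (SD, n = 3 each), and edgeR's log2 fold change was 0.79 ± 0.59 (SE; adjusted p = 0.998). For Il1r1 it was 1.17 ± 0.46 without GFP+ replicate 3, 0.36 ± 0.62 without GFP+ replicate 2 and 0.20 ± 0.79 without pool 2, so its size depended on single libraries. Gm38070 on the same strand overlaps Il1r1 in the annotation, so some of these counts may be shared.

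Il18r1, the binding chain for IL-18, lies on chromosome 1 at 40465552 to 40500854, plus strand. GFP+ replicates 1, 2 and 3 gave 933, 2566 and 121 CPM. The GFP− replicates gave 1115, 1161 and 2037 CPM. The highest and the lowest value of the 6 libraries were thus both in GFP+ ILCPs. The GFP+ level was 0.836 and 2.21 times that of its partner in pools 1 and 2, and the GFP− level was 16.8 times the GFP+ level in pool 3. The means were 1207 ± 1245 and 1438 ± 520 CPM (SD, n = 3 each). edgeR's log2 fold change was −0.25 ± 0.86 (SE; adjusted p = 0.998), and it became 0.28 ± 0.60 without GFP+ replicate 3. The data therefore give no direction for Il18r1 that holds across the pools.

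Il18rap, its accessory chain, lies next to Il18r1 at 40515362 to 40551705, plus strand. GFP+ replicates 1, 2 and 3 gave 209, 105 and 40.8 CPM. The GFP− replicates gave 138, 109 and 393 CPM. The groups overlapped, with the lowest value in GFP+ replicate 3 and the highest in its GFP− partner. The means were 118 ± 84.6 and 213 ± 157 CPM (SD, n = 3 each), with an edgeR log2 fold change of −0.85 ± 0.71 (SE; adjusted p = 0.998). Without pool 3 in both groups it was 0.34 ± 0.53. Both IL-18 receptor genes were thus low in GFP+ replicate 3, where its GFP− partner had 16.8 and 9.64 times as much.

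Myd88, the adaptor that the paired chains share, lies on chromosome 9 at 119335934 to 119341411 on the minus strand. Its values were 23.5, 15.7 and 36.4 CPM in GFP+ replicates 1, 2 and 3. The GFP− replicates gave 20.5, 18.2 and 9.80 CPM. The values of pools 1 and 2 were close within each pool, and those of pool 3 were 3.72 times apart. The means were 25.2 ± 10.5 and 16.2 ± 5.64 CPM (SD, n = 3 each), with an edgeR log2 fold change of 0.64 ± 0.79 (SE; adjusted p = 0.998). Without GFP+ replicate 3 the Myd88 log2 fold change was 0.27 ± 0.75, and without pool 3 it was 0.01 ± 0.74. Acaa1a on the other strand and Slc22a14 on the same strand overlap Myd88 in the annotation, so some of these counts may be shared.

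Per length, Il18r1 and Il1rl1 were the receptor genes with the highest levels. On the scale of CPM per kilobase of merged exons, Il18r1 measured 299 ± 108 and Il1rl1 52.3 ± 9.12 in GFP− ILCPs (SD, n = 3 each). Il18rap, Il1r1, Myd88 and Il1rap followed at 31.6 ± 23.2, 14.2 ± 3.16, 6.27 ± 2.19 and 1.37 ± 0.235. In GFP+ ILCPs Il18r1 measured 250 ± 259 and Il1rl1 206 ± 178. Below them came Il1r1 at 24.4 ± 13.9, Il18rap at 17.5 ± 12.5, Myd88 at 9.78 ± 4.06 and Il1rap at 6.54 ± 2.44 CPM per kilobase. In GFP+ ILCPs no gene differed from the next in this order beyond their spread (1 SD on either side of the mean). In GFP− ILCPs the same held for Il1rl1 and Il18rap and for Il18rap and Il1r1, while the spreads of the other neighbours did not meet. With the length of the longest transcript in place of merged exons, Il1rap measured 16.4 and Myd88 10.2 CPM per kilobase in GFP+ ILCPs, so the order of these 2 depends on the length used. By both lengths Il1rap was the lowest of the 6 in GFP− ILCPs.

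As a share of the counts of the 5 receptor genes, which needs no scaling between libraries but gives longer genes more weight, Il1rl1 took 17.3%, 22.5% and 13.6% in GFP− replicates 1, 2 and 3. In GFP+ replicates 1, 2 and 3 it took 30.3%, 21.8% and 90.4%. GFP+ replicate 2 lay within the GFP− range and GFP+ replicate 3 far above every other library. Il18r1 took 66.4% to 69.3% in the GFP− libraries and 47.8%, 66.8% and 3.87% in the GFP+ libraries. Il1rap took 2.32%, 2.61% and 2.47% of the receptor counts in GFP+ replicates 1, 2 and 3, against 0.947%, 1.04% and 0.437% in the GFP− replicates. Its share was the most even of the 5 among GFP+ libraries, and it was above each GFP− share in all of them.

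**Figure D2:**
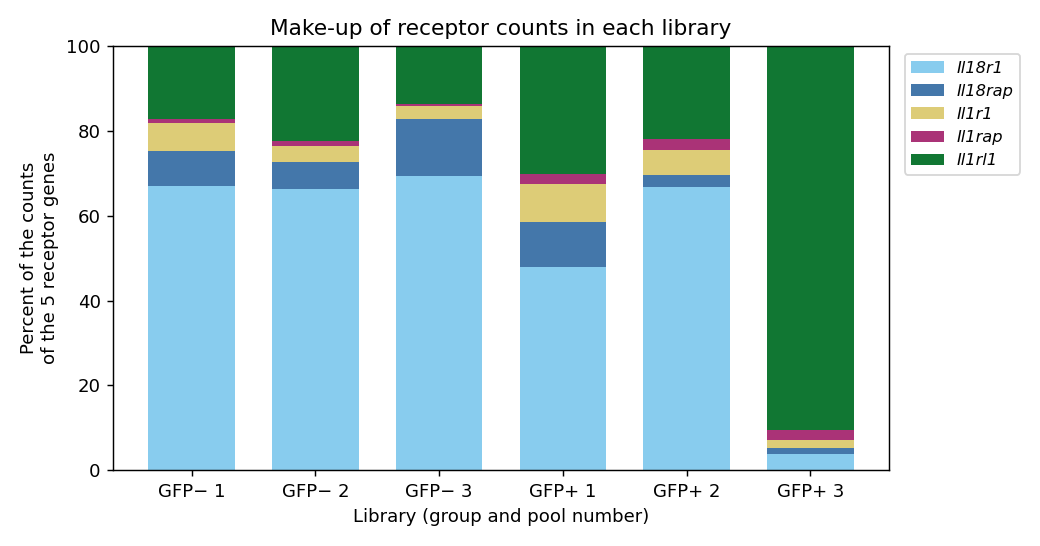
Percent of the summed counts of the 5 receptor genes taken by each gene (stacked bars), for each library. Il18r1 is the largest part in 5 libraries, and Il1rl1 takes 90.4% in GFP+ replicate 3.

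Of the 6 genes, 4 lie in one cluster on chromosome 1. Il1r1, Il1rl2, Il1rl1, Il18r1 and Il18rap follow each other on the plus strand within 327 kb, with Il1r2 before them and Slc9a4 after them, and Slc9a4 is not analysed here. The end of Il1rl1 and the start of Il18r1 are 136 bases apart. In pool 3 these adjoining genes moved in opposite directions, by 2.82 for Il1rl1 and −4.06 for Il18r1 on the log2 scale (CPM plus 0.5). In pool 2 both were higher in the GFP+ library, by 1.09 and 1.14. Il1r2, which encodes a decoy receptor for IL-1, measured 1.02, 17.3 and 0 CPM across GFP+ replicates 1, 2 and 3 and 1.52 to 1.75 CPM in the GFP− libraries. Il1rl2, the receptor chain for IL-36, measured 15.5, 0.166 and 4.52 CPM in the GFP+ libraries and 15.3, 2.48 and 24.4 CPM in the GFP− libraries. Of the 6 cluster genes analysed, Il1rl1 was higher in 3 of 3 pools, Il1r1 in 2 of 3 and each of the other 4 in 1 of 3 (Il1rl2 by 0.02 only).

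**Figure D3:**
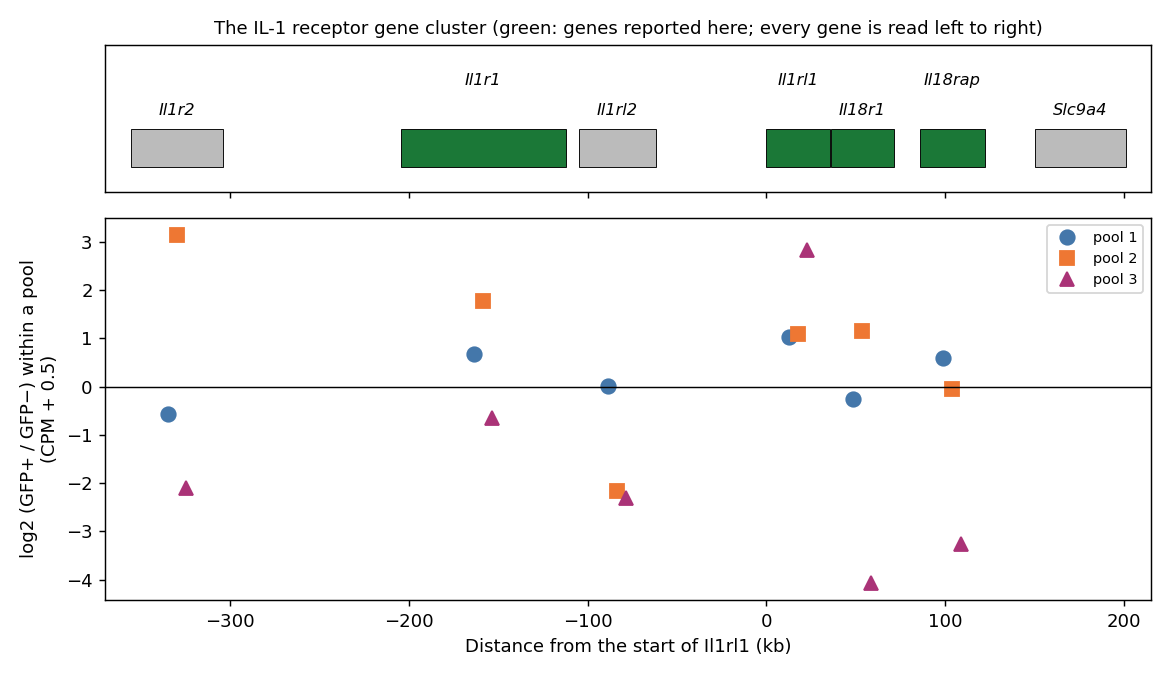
Top, genes of the receptor cluster by distance from the start of Il1rl1 (kb). Bottom, the log2 ratio of GFP+ to GFP− (CPM plus 0.5) for each gene and pool, with Il1rl1 above 0 in all 3 pools and its neighbour Il18r1 at −4.06 in pool 3; points of one gene are set side by side.

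Genes whose levels over the 6 libraries were most like those of each receptor gene were ranked among 6494 genes with a mean of at least 20 CPM, by Pearson's r of log2 CPM, as a description. The 6 libraries came from 3 pools of mice, and the best of 6494 genes over 6 libraries can reach a high r through the ranking alone. For Il1rl1 these were Pofut1, Naa10 and Plagl2 (r of 0.994, 0.986 and 0.986), and for Il1rap they were L3mbtl3, Ly6c1 and Ptpn1 (0.991, 0.989 and 0.988). Ly6c1, which encodes the surface antigen Ly6C1, measured 27.7, 224 and 134 CPM across GFP+ replicates 1, 2 and 3 and 1.12 to 3.68 CPM in the GFP− libraries. For Il18r1 they were Brwd3, Rab11b and Angpt1 (0.998, 0.997 and 0.996), for Il18rap Rbbp8, Keap1 and Dlg1 (0.990, 0.987 and 0.985), for Il1r1 Ppp1r21, Cox17 and Myh10 (0.985, 0.983 and 0.980), and for Myd88 Sdhaf2, B4galnt1 and Cox7a2l (0.995, 0.995 and 0.986).

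Around the 6 genes, 8 lists of the same pathway were described, with 132 genes analysed. edgeR called 0 genes in each of them at an adjusted p under 0.05, beside 0.0% of all genes. The median log2 fold change over all genes tested was −0.03, with 5980 higher and 6219 lower.

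Other receptors, decoys and antagonists of the family had 2 members higher and 3 lower of 5 tested, and a list median of −0.71 (log2 fold change). Sigirr, a receptor that dampens signalling, measured 11.2 ± 8.37 against 18.2 ± 6.30 CPM in GFP+ and GFP− ILCPs (SD, n = 3 each). Il18bp, the secreted decoy for IL-18, measured 22.8, 9.88 and 18.4 CPM in the GFP+ libraries and 8.87 to 10.6 CPM in the GFP− libraries. Il1rn, the IL-1 receptor antagonist, measured 4.82 ± 4.94 against 9.64 ± 11.8 CPM (SD, n = 3 each). These groups overlapped.

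Apart from Hmgb1, the ligands were at low levels in the sorted cells. Il33 had 31, 27 and 21 counts in GFP− replicates 1, 2 and 3 and 0 in each GFP+ library, or at least 19.5-fold lower when the GFP+ group is given a floor of 3 counts, which covers counting error only. edgeR did not call Il33 (adjusted p = 0.998). Il1b had 0.421 CPM in GFP− replicate 1 and 0 in the other 5 libraries, Il18 did not exceed 1.71 CPM and Il1a did not exceed 8.60 CPM. Il1f9, which encodes an IL-36, measured 6.71 ± 10.9 against 6.55 ± 3.62 CPM (SD, n = 3 each). Hmgb1, a chromatin protein that can act as an alarmin when released, measured 163, 195 and 180 CPM in the GFP+ libraries and 269, 323 and 358 CPM in the GFP− libraries. Its groups did not overlap, with GFP+ below, as in 733 of the genes tested (6.01%), and its edgeR log2 fold change was −0.82 ± 0.45 (SE; adjusted p = 0.998). Of the 3 genes tested in the ligand list, Il1f9 was higher and Il33 and Hmgb1 were lower. The list median was therefore the value of Hmgb1.

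Below MyD88, 23 of 38 signalling genes were higher and 15 lower. The list median was 0.16 (log2 fold change), and 4 had an unadjusted p under 0.05, beside 3.23% of all genes tested. Tab2, an adaptor of the TAK1 kinase, measured 683 ± 313 against 783 ± 387 CPM and the NF-κB subunit gene Nfkb1 307 ± 70.3 against 280 ± 71.8 CPM (SD, n = 3 each). The transcription factor genes Jun and Atf2 measured 359 ± 239 against 317 ± 36.8 CPM and 376 ± 253 against 217 ± 153 CPM (SD, n = 3 each). The 4 genes under the unadjusted threshold are named after their values were seen. Irak1, the kinase recruited by MyD88 and IRAK4, measured 112, 141 and 68.5 CPM in the GFP+ libraries and 169, 402 and 208 CPM in the GFP− libraries. Sharpin, a subunit of the linear ubiquitin ligase, measured 29.9, 13.9 and 21.3 CPM against 54.2, 60.3 and 66.4 CPM. In both genes the groups did not overlap, with GFP+ below, as in 733 of all genes tested (6.01%). In this list 3 of the 38 genes were so placed, and 1 had GFP+ above without overlap. The edgeR log2 fold changes of Irak1 and Sharpin were −1.27 ± 0.54 and −1.47 ± 0.63 (SE; adjusted p = 0.998 each). Map3k14, the kinase NIK of the non-canonical NF-κB pathway, measured 45.7 ± 25.6 against 133 ± 65.8 CPM (SD, n = 3 each). The p38β kinase gene Mapk11 measured 6.54, 19.0 and 87.3 CPM in the GFP+ libraries and 5.68 ± 4.81 CPM in the GFP− libraries (SD, n = 3), with the highest value in GFP+ replicate 3. Without that library its edgeR log2 fold change fell from 2.72 to 1.17.

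Feedback and early target genes of NF-κB had 11 of 17 higher and 6 lower. The list median was 0.20 (log2 fold change), and 0 had an unadjusted p under 0.05. Tnfaip3, which encodes the NF-κB inhibitor A20, measured 503, 121 and 851 CPM across GFP+ replicates 1, 2 and 3 and 213 to 261 CPM in the GFP− libraries. Nfkbiz, which encodes the nuclear protein IκBζ induced by IL-1 receptors, measured 151, 104 and 464 CPM against 71.9 to 117 CPM. For both genes GFP+ replicate 3 was the highest of the 6 libraries. GFP+ replicate 2 lay below every GFP− library for Tnfaip3 and within the GFP− range for Nfkbiz. Birc3 measured 260 ± 57.3 against 193 ± 60.2 CPM and Dusp1, a MAP kinase phosphatase, 602 ± 342 against 576 ± 394 CPM (SD, n = 3 each).

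Cytokine genes that such receptors can induce had 3 of 11 higher and 8 lower. The list median was −1.05 (log2 fold change; −2.04 to −0.11 over 17 alternatives). Of the 11, 1 had an unadjusted p under 0.05, beside 3.23% of all genes tested. That gene was Csf2, which encodes GM-CSF. It measured 2.09, 3.07 and 98.3 CPM across GFP+ replicates 1, 2 and 3 and 0.230 to 4.74 CPM in the GFP− libraries, so that 1 library carried the difference. Ccl5 measured 74.5 ± 30.2 against 85.3 ± 5.31 CPM, Lif 40.9 ± 53.2 against 40.9 ± 29.5 CPM and Tnf 11.8 ± 14.3 against 11.6 ± 3.15 CPM (SD, n = 3 each). Regulators known from receptor genes of this family had 9 of 21 higher and 12 lower, and a list median of −0.03 (log2 fold change). Among them Rora measured 685 CPM and Tcf7 343 CPM in GFP+ replicate 3, each the lowest of the 6 libraries, and Ets1 1536 CPM, its highest. Gata3, a regulator of ILC2, measured 764, 290 and 945 CPM in the GFP+ libraries and 788, 918 and 328 CPM in the GFP− libraries, with overlapping groups.

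**Figure D4:**
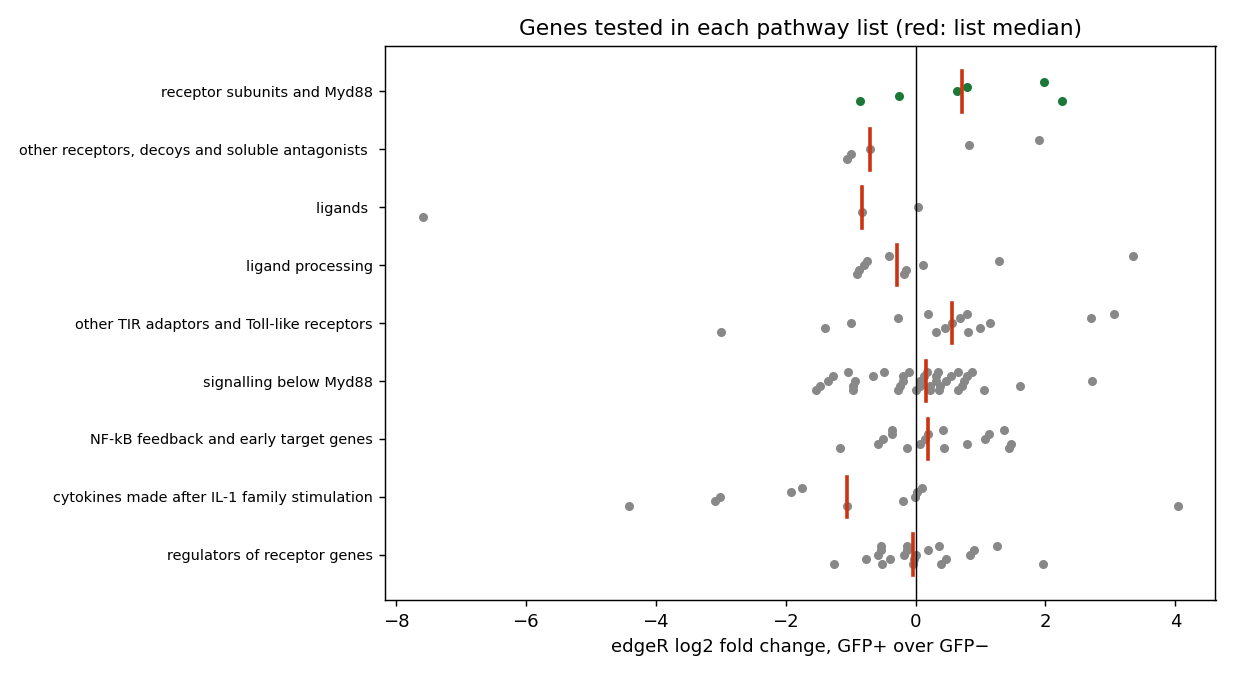
edgeR log2 fold change of GFP+ over GFP− for each gene tested (points), by list, with the list median as a red line. The 6 receptor and adaptor genes (green) reach from −0.85 to 2.25, and no gene in any list passed an adjusted p of 0.05.

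Since Il1rl1 is also known from mast cells, basophils and mature ILC2, the marker lists of these and other cells were set beside it. The mast cell and basophil list, of which 11 of 17 genes were analysed, summed to 492, 1351 and 1204 CPM in GFP+ replicates 1, 2 and 3 and to 347, 300 and 1106 CPM in the GFP− replicates. Its leading gene was Cpa3, a carboxypeptidase, at 329, 1200 and 982 CPM against 149, 161 and 498 CPM. The other leading genes were Mcpt8, at 341 CPM in GFP− replicate 3 and no more than 67.1 CPM in GFP+ libraries, and Slc18a2, at no more than 125 CPM in any library. Fcer1a, the IgE receptor chain that defines mast cells and basophils, was at 0 in each GFP+ library and at 0.552 to 19.4 CPM in the GFP− libraries. Its partner Ms4a2 measured 9.71, 3.98 and 1.90 CPM in the GFP+ libraries and 6.38, 0.184 and 36.1 CPM in the GFP− libraries. Mitf went the other way in pools 2 and 3, at 7.42, 2.49 and 71.8 CPM against 23.8, 0.276 and 1.56 CPM. The rest of the list had lower GFP+ means. Cd200r3 measured 31.4 ± 23.5 against 48.5 ± 54.2 CPM and Prss34 15.5 ± 15.3 against 16.6 ± 9.05 CPM (SD, n = 3 each). Gata2, Hdc and Il4 had GFP+ means of 5.52, 5.03 and 1.68 CPM against 8.26, 11.1 and 6.42 CPM. The ILC2 list without Il1rl1 had 13 of 14 genes analysed, with Rora, Il17rb and Gata3 as leading genes. It summed to 3495 to 4815 CPM in GFP+ and 4307 to 5494 CPM in GFP− libraries. In GFP+ replicate 3 Gata3, Arg1, Hs3st1, Nmur1 and Klrg1 had their highest values, at 945, 354, 232, 216 and 40.5 CPM. Rora and Icos had their lowest values in that library, at 685 and 330 CPM, and Ptgdr2 and Il5 were at 0. Hey1 was at 0 in every library but GFP− replicate 1, at 0.140 CPM.

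GFP+ replicate 3, which held the highest Il1rl1 and the lowest Il18r1 and Il18rap, also held the highest sums of 5 lists of other cells. The gate negatives Il2ra and Flt3 had their highest sum there too, at 2032 CPM against 153 to 398 CPM elsewhere. Il2ra carried that sum, with Flt3 at 0 there. Macrophage, monocyte and granulocyte genes (11 of 16 analysed, led by Lyz2, Mpo and Cybb) summed to 1898 CPM there, against 997 and 50.1 CPM in GFP+ replicates 1 and 2 and 192 to 406 CPM in GFP− libraries. Besides the leading genes, Csf1r, Elane, Prtn3, S100a8 and Ctsg were at their highest there, at 82.6, 55.7, 23.2, 12.6 and 11.5 CPM. Csf1r was nearly as high in GFP+ replicate 1, at 82.1 CPM. Itgam was at 0 in GFP+ replicates 2 and 3 and in GFP− replicate 3. Adgre1 and Fcgr3 had their lowest values of the 6 libraries in GFP+ replicate 3, 0.476 and 1.19 CPM. B lineage genes (11 of 11, led by Jchain, Cd79b and Sdc1) summed to 932 CPM there and to 32.8 to 108 CPM elsewhere. Jchain alone made up 802 CPM of that sum, and Cd79b and Cd79a were at their highest, 62.8 and 24.8 CPM. Ebf1 and Cd22 were at their lowest, 0.833 and 1.55 CPM. Pax5, a defining gene, did not exceed 1.59 CPM in any library and was at 0 in GFP+ replicate 3. Dendritic cell genes (8 of 9, led by Cd74, H2-Ab1 and H2-Aa) summed to 1763 CPM there and to 313 to 726 CPM elsewhere. Cd74 alone made up 1436 CPM of that sum, while H2-Aa, at 109 CPM, lay below all 3 GFP− libraries and Itgax was at 0. Erythroid and megakaryocyte genes (11 of 12, led by Car1, Itga2b and Hbb-bs) summed to 138 CPM against 0.498 to 61.2 CPM elsewhere. Car1, Hbb-bs, Hba-a2, Hba-a1, Hbb-bt and Klf1 were at their highest in GFP+ replicate 3, from 41.4 down to 7.50 CPM. Itga2b was at its lowest there, 0.119 CPM. Alas2 and Pf4 were at 0, though not only in that library. In the same library eosinophil genes (5 of 9, led by Ccr3, Ear2 and Siglecf) summed to 14.4 CPM against 1.38 to 12.4 CPM. Ccr3 alone made up 13.1 CPM of that sum, and Siglecf, Epx and Il5ra were at 0 there. Ear2 measured 1.31 CPM there, below its 7.68 CPM in GFP+ replicate 1. Natural killer cell and ILC1 genes (13 of 14, led by Il2rb, Nkg7 and Klrk1) had their lowest sum there, 266 CPM against 353 to 676 CPM elsewhere. The part of these cells in the levels of the receptor genes was not tested. Without that library the ratio of means was 4.67 for Il1rap and 1.98 for Il1rl1.

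T lineage genes (12 of 12, led by Bcl11b, Themis and Lck) summed to 708 to 947 CPM in GFP+ and 569 to 791 CPM in GFP− libraries, and stromal and endothelial genes (8 of 10, led by Pecam1, Lum and Sparc) to 149 to 409 and 206 to 384 CPM. ILC precursor genes (12 of 12) were led by Itga4, Il7r and Tcf7. They summed to 7408 to 15857 CPM in GFP+ and 7775 to 14346 CPM in GFP− libraries. In that list Itga4, Tcf7, Tox and Kit had their lowest values in GFP+ replicate 3, at 1795, 343, 135 and 67.8 CPM. Pdcd1 was at 0 there. Gata3, Id2, Thy1, Itgb7, Cxcr6 and Nfil3 had their highest values there, from 945 down to 21.2 CPM. The sums alone thus do not show that each marker was kept in every library.

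**Figure D5:**
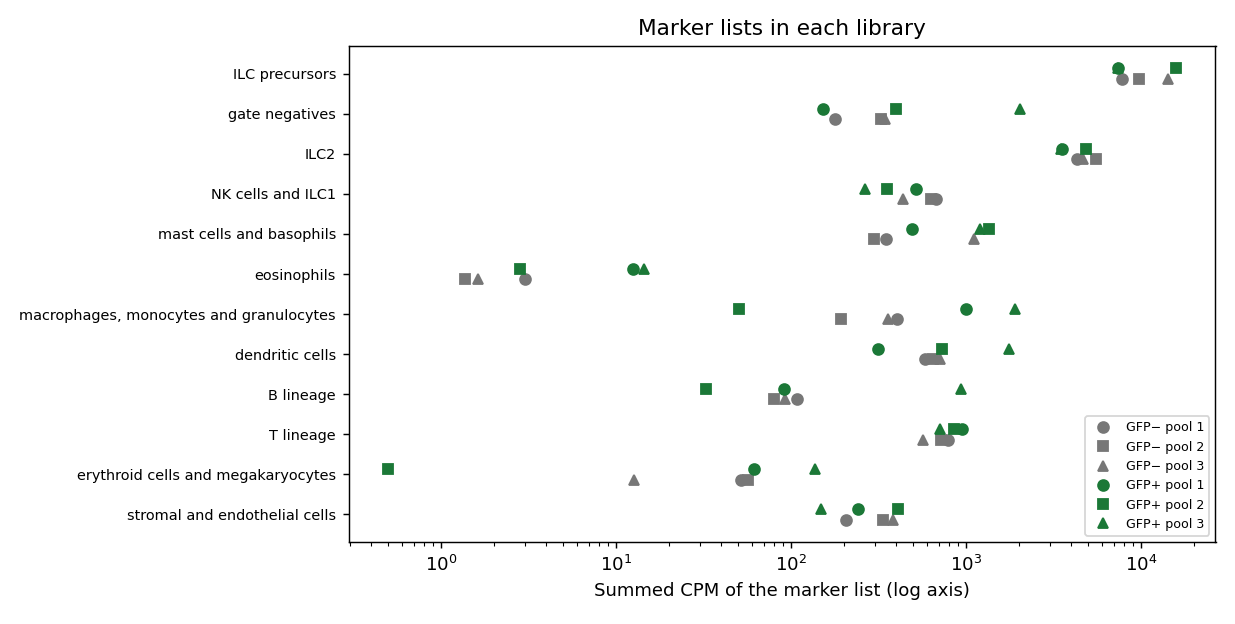
Summed CPM (log axis) of each marker list in each library, GFP− in grey and GFP+ in green, with one symbol for each pool. GFP+ replicate 3 (green triangle) has the highest sum of the gate negatives, at 2032 CPM. It also has the highest sum of the myeloid, dendritic cell, B lineage, erythroid and eosinophil lists, at 1898, 1763, 932, 138 and 14.4 CPM.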

How the data were processed

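Per the labels' protocols, libraries were made with the Trio RNA-seq kit (SPIA amplification of cDNA, then removal of ribosomal sequences) and read as pairs of 75 bases. Trimmomatic, DESeq2, kallisto and Bowtie2 and the mouse build GRCm38 are listed in the submitters' processing notes, where no version is given. The authors' deposited table holds estimated counts per gene, not normalized, beside their log2 fold changes with errors, a Wald statistic as a score, p-values with adjusted p, and a mean of normalized signal per gene, per the file headers.

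Estimated counts were rounded and tested with edgeR 4.0.16 under R 4.3.3 (robust quasi-likelihood fit of group alone, TMM scaling, filterByExpr), and p-values were adjusted by Benjamini-Hochberg over every gene tested, at 0.05. DESeq2 1.42.0 was run beside it. All fold changes are GFP+ over GFP−, and standard errors of edgeR were taken from its F statistic. Alternatives were the replicate block, other scaling and filters, no robust moderation, DESeq2 with and without the block, and each replicate and library left out. DESeq2 without single libraries was chosen after seeing the data. The labels say that same-numbered libraries came from one pool of mice, which pairs them, and correlations of their deviations were 0.161, −0.121 and −0.131. The 6 genes and the gene lists were chosen with earlier results of these data known. From each pathway list the 4 genes of highest mean and any called gene were named, from each marker list the 3 of highest mean, and for each receptor gene the 3 most alike. Genes later than Trappc10 in alphabetical order are not analysed here, apart from the mitochondrial ones. Coordinates and lengths are from GENCODE vM21, promoters from RefSeq on GRCm38.p6. Figures were drawn with matplotlib 3.10.9.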

Additional observations from a re-analysis of the deposited data

How the results depend on the processing

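edgeR called 0 genes in each of its settings, and DESeq2 called 60, and 153 with the replicate block. With the replicate block in edgeR, the log2 fold changes of Il1rl1 and Il1rap were 1.63 and 2.19, and the block changed no call among the 6 genes. With it the median of all genes was −0.24. Scaling by library totals moved the median of all genes to −0.19, and relative to it the 6 receptor and adaptor genes kept their direction. Il1rl1, Il1rap, Il1r1 and Myd88 were higher in GFP+ ILCPs in all 23 alternatives. Over those that left out replicates or libraries their log2 fold changes ranged from 0.98 to 2.47, 1.97 to 2.59, 0.20 to 1.22 and 0.01 to 0.98. DESeq2 called Il1rap without GFP+ replicate 1, at 2.59. Those of Il18r1 and Il18rap ranged from −1.59 to 0.62 and from −1.74 to 0.34. Il18r1 changed sign without replicate 3 in both groups (0.62), in GFP+ cells (0.28, DESeq2 0.34) or in GFP− cells (0.09, DESeq2 0.10), and Il18rap without replicate 3 in both. The cause was not tested. Among the list medians, that of other receptors and decoys reached 0.76, that of signalling genes ranged from −0.09 to 0.36 and that of the regulators from −0.24 to 0.18, so these give no stable direction. The medians of the ligand and cytokine lists kept their sign but ranged from −3.89 to −0.39 and from −2.04 to −0.11. The ligand list had 3 genes tested, and its median in the main fit was the value of Hmgb1 alone.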

Other observations

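Genes that process the ligands and genes of the Toll-like receptors, which use the same adaptor, were described as further lists of the pathway. Ligand processing genes had 3 of 10 higher and 7 lower in GFP+ ILCPs. The list median was −0.29 (log2 fold change), and edgeR called 0 of them, with 0 under an unadjusted p of 0.05. Aim2, a sensor of cytosolic DNA that activates caspase-1, measured 69.4, 54.2 and 49.03 CPM across GFP+ replicates 1, 2 and 3 and 105, 127 and 90.8 CPM in the GFP− replicates. Its groups did not overlap, with GFP+ below, as in 733 of all genes tested (6.01%) and in 1 of the 10 in this list. The edgeR log2 fold change of Aim2 was −0.90 ± 0.51 (SE; adjusted p = 0.998). Casp1, the caspase that matures IL-1β and IL-18, measured 115 ± 57.4 against 127 ± 27.1 CPM (SD, n = 3 each). Casp8 measured 234 ± 107 against 264 ± 60.4 CPM and Casp4 73.1 ± 36.8 against 30.02 ± 10.4 CPM (SD, n = 3 each).

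Toll-like receptors and the TIR adaptors other than MyD88 had 11 of 15 higher and 4 lower. The list median was 0.56 (log2 fold change), and edgeR called 0 of them. Of the 15, 1 had an unadjusted p under 0.05, beside 3.23% of all genes tested. That gene was Tirap, the bridging adaptor for MyD88, which measured 14.7, 7.05 and 151 CPM across GFP+ replicates 1, 2 and 3 and 3.58 to 13.5 CPM in the GFP− libraries. Its high mean rested on 1 library. Ticam1 (TRIF) measured 80.8 ± 55.5 against 65.1 ± 7.82 CPM, Tlr1 32.7 ± 8.56 against 22.2 ± 2.23 CPM and Tlr7 17.8 ± 10.6 against 15.6 ± 5.78 CPM (SD, n = 3 each).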
